A study of Mus musculus with 1119 samples.

Results

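Within the P30 hair bulb of mouse back skin, the keratinocytes that carried the melanocyte transcript Mlana were set against those that did not. The cells were chosen by their own transcripts: at least 2000 genes at a TPM of 1 or more, where TPM is a share of all transcripts corrected for gene length, the basal keratin gene Krt5 at 1 TPM or more, and Myh11, a smooth muscle myosin, below 1 TPM. The series holds 1119 single cells, of which 76, 78, 75, 74 and 81 on 5 plates came from the hair bulb (P1-3, P1-4, P1-5, P1-6 and P2-1, a plate being read from the start of a cell's title). In that order, 61, 59, 56, 54 and 66 of these met the rule, and of them 22, 21, 22, 25 and 38 had Mlana at 1 TPM or more while 39, 38, 34, 29 and 28 did not. The study followed the hair follicle from rest to growth with the Smart-seq2 method, which reads full-length transcripts of cells sorted one by one into plate wells. The hair bulb cells came from mice of postnatal day 30, of mixed sex, labelled Lhx2-GFP (CD1), where CD1 is an albino stock. Their sort is labelled with GFP, integrins α6 and b1, CD34, Sca-1 and Pcadherin, and the labels name no surface marker of melanocytes for it. Both sets of cells share this genotype, age and sort, and every hair bulb cell carries the authors' single annotation as matrix cells. No animal is named, so the hair bulb counts as 1 sample, no difference was tested, and the plates serve as a technical spread.

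The matrix is the pool of dividing keratinocytes around the dermal papilla at the base of the growing follicle. It gives rise to the medulla, cortex and cuticle of the hair shaft and to the inner root sheath. Melanocytes sit among the matrix cells above the papilla, need KIT ligand from their surroundings, and hand melanosomes over to keratinocytes of the shaft. Mlana encodes a melanosome protein of these pigment cells.

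The melanocyte transcription factor MITF binds the M-box, of which TCATGTG is the core searched here, on both strands. The pigment genes moved together with Mlana, so the windows of 250 bases before to 50 bases after their start sites (RefSeq, GRCm38.p6) were read for it. Of Mlana and the 15 melanosome genes listed, 11 had a window and 5 of these held the motif. Mlana itself and Pmel were among those without a window. Counted by window this was 5 of 14 (35.7%), against 3.77% of all 32851 windows. The letters are given for 4 of the genes, 5′ to 3′ on the gene's own strand, with the matches in capitals. The windows are chr7:87493463-87493762 on the minus strand for Tyr, chr4:80833963-80834262 on the plus strand for Tyrp1, chr14:118052197-118052496 on the minus strand for Dct and chr7:64153585-64153884 on the plus strand for Trpm1.
Tyr: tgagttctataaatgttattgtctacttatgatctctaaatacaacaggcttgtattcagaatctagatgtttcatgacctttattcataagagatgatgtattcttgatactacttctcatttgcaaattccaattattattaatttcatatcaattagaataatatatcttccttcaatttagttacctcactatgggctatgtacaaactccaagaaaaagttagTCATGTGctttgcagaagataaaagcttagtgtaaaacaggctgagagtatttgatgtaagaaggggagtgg
Tyrp1: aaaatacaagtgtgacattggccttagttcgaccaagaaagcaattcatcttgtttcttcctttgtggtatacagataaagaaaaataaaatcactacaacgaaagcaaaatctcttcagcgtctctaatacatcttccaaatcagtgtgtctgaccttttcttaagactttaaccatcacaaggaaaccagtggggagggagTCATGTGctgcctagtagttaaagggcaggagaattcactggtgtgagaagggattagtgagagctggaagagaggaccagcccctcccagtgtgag
Dct: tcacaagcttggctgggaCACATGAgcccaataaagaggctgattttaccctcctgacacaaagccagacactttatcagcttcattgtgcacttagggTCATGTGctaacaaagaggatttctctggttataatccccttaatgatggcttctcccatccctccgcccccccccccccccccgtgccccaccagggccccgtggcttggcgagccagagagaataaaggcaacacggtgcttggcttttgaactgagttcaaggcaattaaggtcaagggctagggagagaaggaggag
Trpm1: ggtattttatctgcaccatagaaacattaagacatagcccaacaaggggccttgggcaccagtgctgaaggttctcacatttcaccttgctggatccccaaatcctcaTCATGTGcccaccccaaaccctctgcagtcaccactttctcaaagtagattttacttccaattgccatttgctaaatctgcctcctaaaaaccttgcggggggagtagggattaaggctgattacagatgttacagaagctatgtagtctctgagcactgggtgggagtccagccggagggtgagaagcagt
The match began at position -22 from the start site in Tyr, -47 in Tyrp1 and -142 in Trpm1. Dct held 1 match at -151 and another, reading CACATGA on the printed strand, at -232. In Slc24a5 a match on the opposite strand lay at -13. Of the 12 other genes most higher with Mlana, 10 had a window and 0 held the motif. A match describes these letters only and is no evidence of a bound site.

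Mlana was found in 43.2% of the keratinocytes (exact 95% interval 37.5% to 49.1%, which covers the counting of cells only). By plate the share was 36.1% on P1-3, 35.6% on P1-4, 39.3% on P1-5, 46.3% on P1-6 and 57.6% on P2-1. Among the cells with it the level ran from 1.67 to 4034 TPM, with a median of 34.1 and the middle of the distribution between 14.1 and 100.6 TPM. All cells without it were at 0. No cell lay between 0 and 1.67 TPM, and the 3 lowest cells inside the threshold had 1.67, 2.5 and 2.6 TPM. At the Krt5 threshold the nearest cells inside had 1.17, 1.21 and 1.35 TPM, and those outside 0.99, 0.87 and 0.75 TPM. For Myh11 the nearest cells inside had 0.81, 0.78 and 0.56 TPM and those outside 1.46, 21.1 and 62.2 TPM. For genes per cell the counts nearest the limit were 2333, 2372 and 2463 inside, and 1524 was the highest outside. Another 37 hair bulb cells had Mlana but no Krt5, and 11 with Krt5 were left out for Myh11. Outside the hair bulb, Mlana was seen in 3 P30 dermal papilla cells (0.99%, interval 0.20% to 2.86%) and in 0 cells of the 5 groups at P21 to P27, whose sizes allow a share of up to 9.03% (P21 b), 5.28% (P21 hg), 5.28% (P23-P24 hg), 20.6% (P25-P27 hg) and 1.86% (P25-P27 mat).

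**Figure D1:**
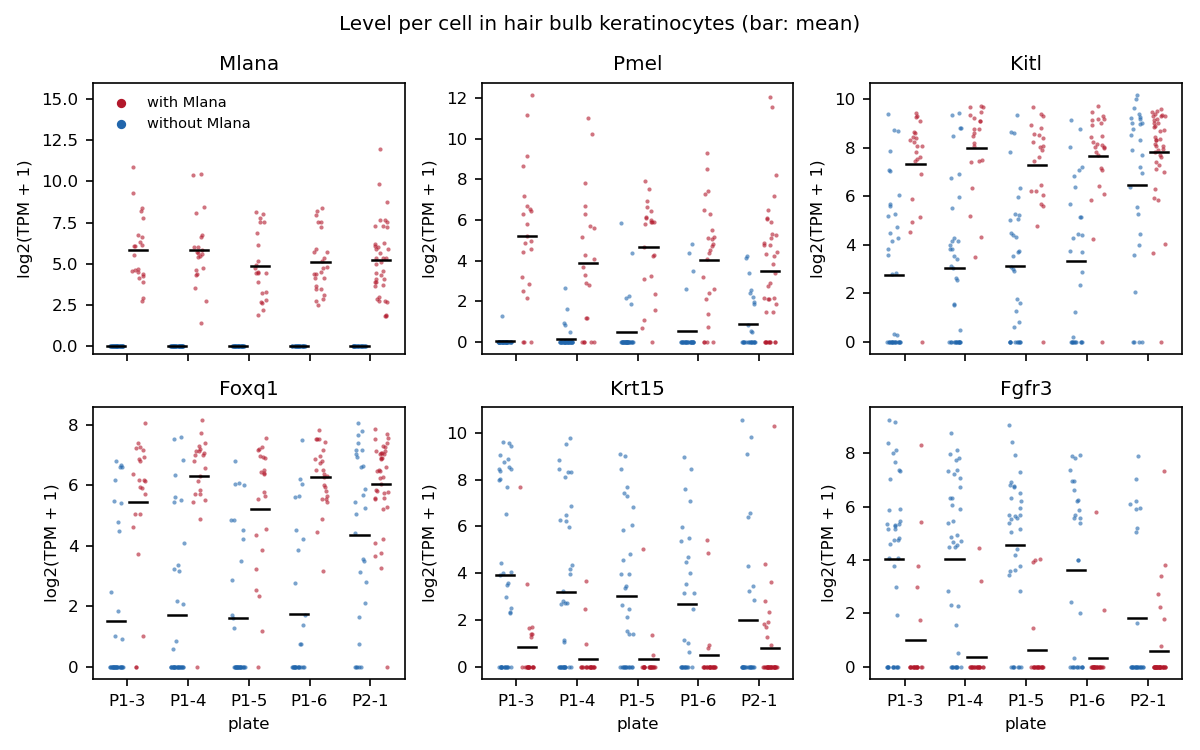
Level of 6 genes in each keratinocyte, as log2(TPM + 1), by plate, with cells with Mlana in red, cells without it in blue and bars at the mean. Mlana chose the cells. Kitl and Foxq1 are high in nearly all cells with Mlana and spread from 0 to the same heights in cells without it, and on plate P2-1 the cells without Mlana sit higher for both genes.

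Mlana did not come alone. All 15 melanosome genes had a higher mean in the cells with Mlana, with a median difference of 2.10 on the log2(TPM + 1) scale (1.69 to 2.78 over the plates). That scale understates differences of low genes. The pattern is partly a description of the choice of cells, since these genes mark the same pigment cells as Mlana. Among 10075 genes seen (1 TPM or above) in 30% or above of the cells of either set, 3.56% were higher and 3.34% lower by at least 1, and the median gene differed by -0.02. Of these genes, 4864 were above 0 and 5211 below, the background for the counts of list members given below. Of the melanosome genes, 14 were higher by 1 or more.

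Pmel, which builds the fibrils of the melanosome, was seen in 80.5% of cells with Mlana and 11.9% of cells without, with means of 185.7 and 1.32 TPM. By plate the mean with Mlana was 389.3, 186.3, 56.5, 70.2 and 218.2 TPM in the order P1-3, P1-4, P1-5, P1-6, P2-1, against 0.037, 0.25, 2.52, 2.13 and 2.27 TPM without. The plate means of both sets did not overlap. Trpm1, a cation channel gene of melanocytes, was seen in 96.1% against 13.7% (difference 4.49), and Tyrp1, a melanin-forming enzyme, in 79.7% against 8.33% (3.59). Slc45a2, a melanosome transporter, was seen in 50.8% of cells with Mlana and in 0 cells without, which allows a share of up to 2.17% there. Oca2, another transporter of that organelle, was seen in 54.7% against 1.79% (a difference of 2).

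Other genes of the same list were also common in cells without Mlana. Dct, the enzyme after tyrosinase in the pigment pathway, was seen in 100% of the cells with Mlana and in 61.9% of those without, at a median of 37.9 against 6.09 TPM. Tyr, tyrosinase itself, was seen in 79.7% against 53.6% (difference 1.89). Gpnmb, a melanosome glycoprotein, had the largest difference of the list at 5.71: it was seen in 99.2% of cells with Mlana, at a mean of 795.5 TPM, and in 44.6% of cells without, at a mean of 233.8 TPM. Mreg, which acts in melanosome transfer, was seen in 98.4% against 70.8% (2.10). Every cell with Mlana had at least 6 of the 15 genes, with a median of 11, against a median of 4 in cells without.

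Regulators of the pigment lineage varied widely. Erbb3, a neuregulin receptor, was seen in 84.4% of cells with Mlana and 66.1% without (difference 0.41). Mitf was seen in 64.1% of cells with Mlana against 16.7% without (difference 1.83), and Ednrb, an endothelin receptor of the lineage, in 51.6% against 7.14% (1.66). Sox10, a transcription factor of neural crest cells, was seen in 35.9% against 3.57% (1.02), and Pax3 in 25% against 0.60% (0.62). Kit, the receptor for KIT ligand, went the other way: 33.6% of cells with Mlana had it against 39.9% of cells without (-0.45, plates -0.88 to 0.16). Of the 9 regulators 8 were above 0, with a median of 0.76 (plates 0.58 to 1.23). This median was 0.36 when only cells with Mlana below 100 TPM were kept on the side with Mlana.

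Outside the pigment lists, the genes that went with Mlana were led by Ptgds, Kitl, Soat1, Foxq1 and Krt75. Kitl, which encodes KIT ligand, had a mean of 330.1 TPM with Mlana and 110.6 TPM without, and was seen in 96.9% against 63.1% of cells (difference 4.03). By plate the mean with Mlana was 280, 400.5, 273.1, 328.1 and 354.5 TPM, and without Mlana 60.8, 81.1, 61.3, 67.8 and 324.2 TPM, in the same plate order. The cells without Mlana on P2-1 stood above those of the other 4 plates and above the P1-3 and P1-5 means with Mlana, so the plate ranges overlapped. Foxq1, a transcription factor gene mutated in satin mice and needed in the medulla, was seen in 96.1% against 42.3% of cells, at means of 90.3 and 24.7 TPM (3.80). Krt75, a keratin of the companion layer and medulla, was seen in 95.3% against 52.4%, at means of 147.9 and 46 TPM (3.78).

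Ptgds, a prostaglandin D synthase gene, had the largest difference outside the pigment lists (4.82). It was seen in 85.2% of cells with Mlana and 13.1% of cells without, at means of 277.5 and 2.60 TPM. Soat1, which esterifies cholesterol, followed at 3.96, and Tgm6, a transglutaminase, at 3.51. S100a3, a calcium-binding protein of the hair cuticle, had means of 122.7 and 34.3 TPM (3.43). Sct, the secretin gene, differed by 3.29, and B3gnt5, a glycosyltransferase, by 3.25. Krt23, a keratin, differed by 3.25, the transcriptional repressor Prdm1 by 3.24 and Aldh1a3, which makes retinoic acid, by 3.21. One sign on every plate was a condition of their choice, and P2-1 gave the smallest difference in each of the 12.

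The genes lower in cells with Mlana were led by Fgfr3, Notch1, Cmah, Timp3 and Nfib. Fgfr3, an FGF receptor, was seen in 14.8% of cells with Mlana against 64.3% without, at means of 5.56 and 63.8 TPM (difference -3.12, plates -3.93 to -1.24). Notch1 was seen in 27.3% against 73.2% (-2.67, plates -3.56 to -0.72), and Fgfr1, another FGF receptor, in 35.2% against 79.8% (-2.26). Fgfr2, of the same family, went the other way over all cells but not on every plate, seen in 98.4% against 89.3% (0.62, plates -0.31 to 1.49). The list of 12 notch and cell contact genes had a median of -0.38, with 4 genes above 0 and Notch1 the only one lower by 1 or more. Krt15, a keratin of basal and stem cells, was seen in 17.2% against 54.8%, at means of 12.9 and 99.3 TPM (-2.45). The nuclear factor genes Nfib (-2.46) and Nfix (-2.12) and the homeobox gene Irx2 (-2.03) were lower too. So were Cmah, a sialic acid hydroxylase (-2.59), Timp3, an inhibitor of metalloproteinases (-2.53), Pdzd2 (-2.14), Celsr1, a planar polarity cadherin (-2.07), and the cell cycle kinase gene Cdk6 (-2.03). Each of the 12 most lower genes lay nearest 0 on P2-1. There Notch1 was seen in 28.9% of cells with Mlana against 39.3% without, at means of 6.90 and 7.88 TPM. Krt5, which chose the cells, had a mean of 67.2 TPM with Mlana and 150.3 TPM without (-1.24).

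**Figure D2:**
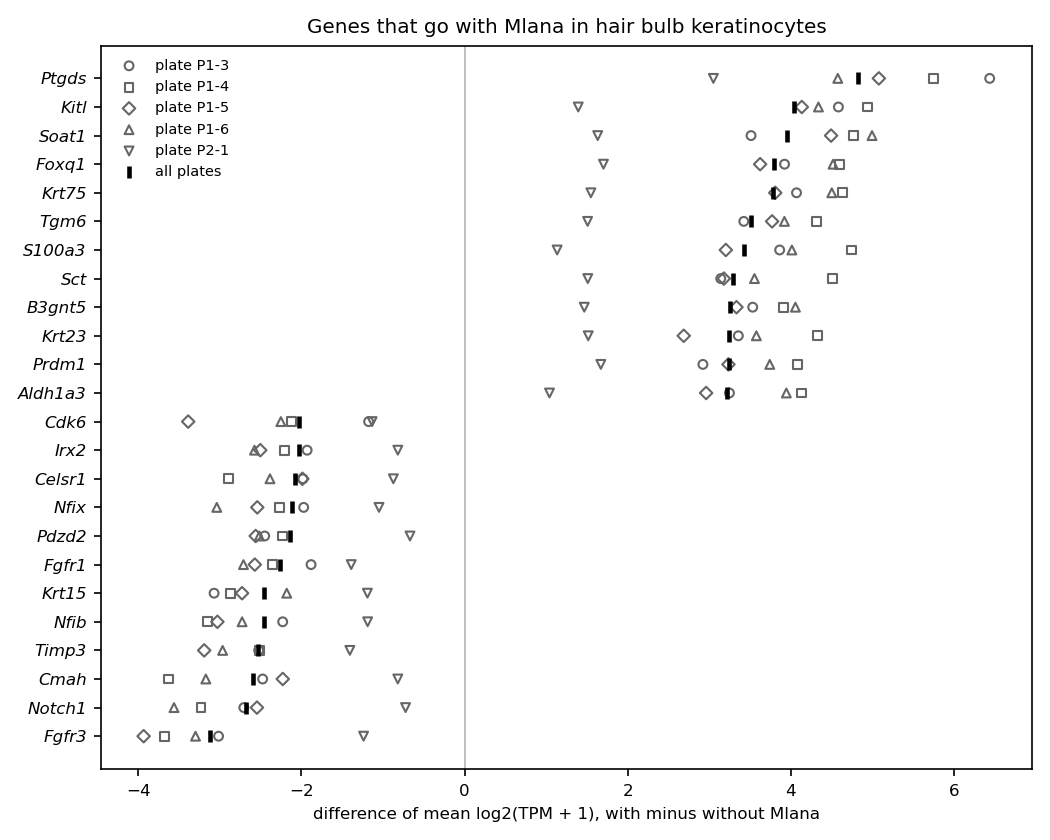
Difference of mean log2(TPM + 1), cells with minus cells without Mlana, for the 12 genes most higher and the 12 most lower; open symbols are plates and the black bar is all cells. Plate P2-1 lies nearest 0 in all 12 higher and all 12 lower genes, as with Kitl at 1.39 and Notch1 at -0.72. One sign on all plates was a condition of the choice.

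Across the hair lineages, the medulla list stood highest, but the lists were chosen with earlier results of these data known. Foxq1 and Krt75 of this list are also among the 12 most higher genes. Its 6 genes (Foxq1, Padi3, Krt75, Krt17, Tchh and Hoxc13, of which 4 also stand in other lists) were all higher by 1 or more, with a median of 2.67 (plates 1.47 to 3.21) beside -0.02 over all genes counted. Padi3, which citrullinates hair proteins, was seen in 98.4% against 75% of cells (difference 2.79), and Tchh, trichohyalin, in 75% against 31.5% (2.56). Of 14 matrix genes 11 were above 0, with a median of 0.90. Bambi, a decoy receptor for BMP and TGF-beta signals, was seen in 94.5% against 58.9% (2.37), and Hoxc13, a regulator of hair keratins, in 97.7% against 78% (1.86). Matrix genes were widespread in both sets: Dlx3 was seen in 99.2% and 90.5%, and Lef1 in 94.5% and 70.8%, of cells with and without Mlana. Shh, a signal of one side of the matrix, was seen in 0.78% against 10.1%. Lhx2, for which the GFP line is named, was seen in 68.8% against 87.5% (-1.47).

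Of 20 cortex and cuticle genes only 5 were seen in enough cells to be counted, and the median of 0.08 over all 20 reflects genes hardly seen in either set. The 5 were S100a3, Krtap8-1, Krt35, Dsg4 (0.50) and Krt83 (0.29), all above 0. Krtap8-1 and Dsg4 were counted only through the cells with Mlana, a filter that itself favours differences above 0. Dsg4 was seen in 31.25% against 11.3% of cells, but its mean was 3.92 TPM with Mlana and 4.17 TPM without. Krtap8-1, a keratin-associated protein of the shaft, was seen in 64.1% against 28% of cells (difference 2.31), and Krt35, an early hair keratin, in 51.6% against 32.7% (0.74). The inner root sheath list was mixed, with 8 genes above and 6 below 0 and a median of 0.16. Tgm3, a transglutaminase of sheath and shaft, was higher with Mlana (93% against 36.9% of cells, 2.74). Gata3, a transcription factor of the inner root sheath, was lower (11.7% against 43.5%, -1.73), and Krt71, a sheath keratin, was seen in 13.3% and 16.7%. The basal and outer root sheath list had a median of -0.52, with 10 of 15 genes below 0. Krt14, the partner of Krt5, was seen in 46.9% against 71.4% (-2.01), and Lgr5, a stem cell marker, in 3.12% against 28.6% (-1.84). Krt17 went against its list (1.34). The integrin gene Itga6 (0.41) and the epithelial regulator Trp63 (-0.17) were within 1 on this scale. The companion layer list had a median of -0.01, and Krt75 was its only gene past 1.

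Genes of DNA replication and division were lower with Mlana. All 18 S phase genes were below 0, 14 of them by 1 or more, with a median of -1.25 (plates -1.80 to -0.69), where 3.34% of all genes counted were lower by that much. Mcm3, a subunit of the replicative helicase, was seen in 32.8% against 64.3% of cells (-1.80), and Uhrf1, which maintains DNA methylation, in 51.6% against 76.2% (-1.77). All 20 G2/M genes were below 0 as well, 7 by 1 or more (again beside 3.34%), with a median of -0.91. Mki67, which marks cycling cells, was seen in 51.6% against 69% (-1.42). After cells with Sox10, Pax3 or Kit were left out, the medians were -0.40 for S phase and -0.20 for G2/M, and without cells with Sox10 or Pax3 alone they were -1.14 and -0.98.

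Genes for signals from keratinocytes to melanocytes lay near 0 as a list (median -0.02, 4 of 12 genes above 0, Kitl among them). Wnt4, a WNT ligand, was seen in 98.4% against 76.8% of cells (1.22). Edn1 and Edn3, endothelins that act on melanocytes, were seen in 1.56% and 3.91% of cells with Mlana and in 10.7% and 5.36% of cells without. Hgf and Pomc were seen in fewer than 1% of cells in both sets. Foxn1, a keratinocyte gene linked with pigmentation of the hair shaft, was seen in 14.1% and 12.5%. Among 12 genes for the uptake and handling of melanosomes the median was 0.19, and the protease gene Ctsl was the only one past 1 (1.38).

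**Figure D3:**
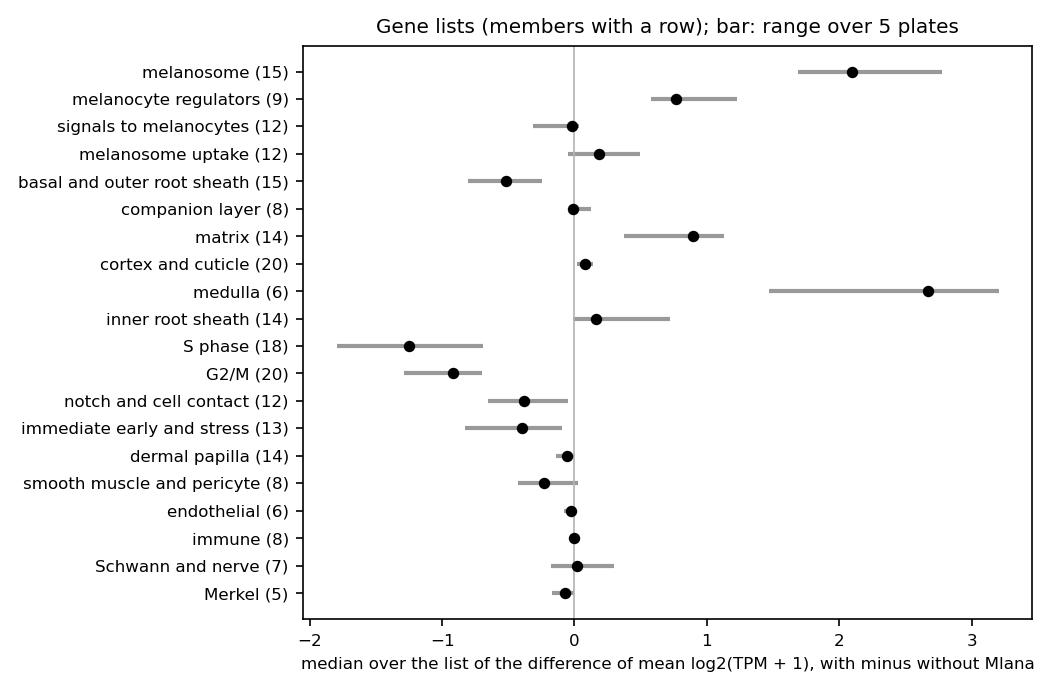
Median difference (with minus without Mlana, log2(TPM + 1)) of each gene list, with the number of members that have a row; dots are all cells and bars run from the lowest to the highest plate. The melanosome and medulla lists lie above 1 on every plate, and the S phase and G2/M lists lie below 0 on every plate.

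Seen from the keratinocyte side, the share of cells with Mlana differed with the keratinocyte genes seen in them. It was found in 65.4% of the cells with both Kitl and Foxq1 (interval 58.1% to 72.2%) and in 2 of 57 cells with neither (3.51%, 0.43% to 12.1%). By plate the first share ran from 62.5% to 70.6%. Cells with both Krt75 and Krtap8-1 had Mlana in 67.2% of cases, cells with Krt75 alone in 46.8% (44 of 94), cells with Krtap8-1 alone in 30.8% (4 of 13), and cells with neither in 2.74% (2 of 73). Cells with Gata3 had Mlana in 17% of cases, cells with Lgr5 in 7.69% (4 of 52) and cells with Shh in 5.56% (1 of 18). Within the cells that had Kitl, Mlana was found in 71.4% of the 84 without Mki67 and in 43.8% of those with it. The lower share in cycling cells was therefore also present among cells with Kitl.

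**Figure D4:**
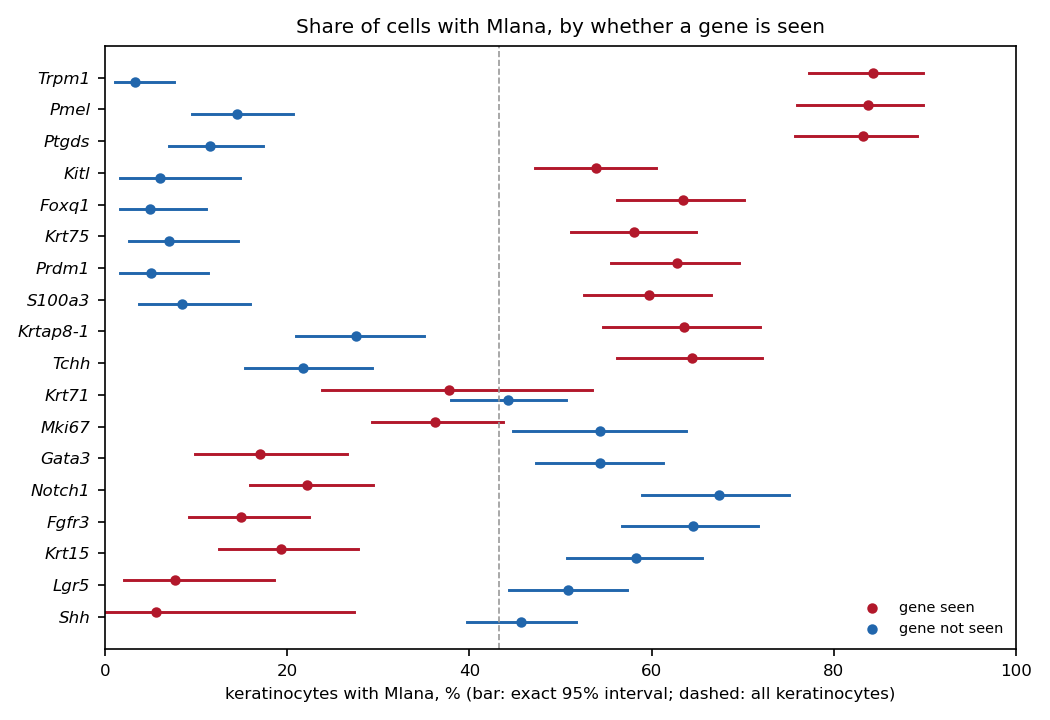
Percent of keratinocytes with Mlana among cells in which a gene was seen (red) or not seen (blue), with exact 95% intervals and a dashed line at 43.2% for all keratinocytes. Kitl, Foxq1, Krt75 and Prdm1 leave at most 6.98% of the cells that lack them with Mlana, and for Krt71 the intervals overlap.

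The levels of pigment and shaft genes were followed over ranges of Mlana. Over cells with Mlana at 0, at 1 to under 10, at 10 to under 100 and at 100 TPM or more (25, 71 and 32 cells in the last 3), mean Pmel was 1.32, 12.9, 24 and 679.3 TPM. From the lowest to the highest range with Mlana this was a ratio of 52.8. The same ratio was 68.2 for Tyrp1, 64 for Tyr, 20 for Trpm1 and 38.2 for Ptgds. Mean Kitl in the same 4 ranges was 110.6, 242.8, 342.3 and 371.3 TPM, a ratio of 1.53. Foxq1 stood at 24.7, 80.7, 94.9 and 87.3 TPM (1.08) and Krt75 at 46, 130.3, 156.4 and 142.7 TPM (1.09). Among other shaft genes the ratio was 14.6 for Krt35 (4.89 to 71.5 TPM, with medians of 0 and 2.78), 2.98 for Dsg4, a desmosomal cadherin, 1.28 for Krtap8-1, 0.93 for Padi3 and 0.42 for Tchh. Gpnmb (1.35) and Mreg (1.25) had ratios near that of Kitl, below those of Mlph (11.8) and Rab38 (5.32). Krt15 was at 99.3, 60.4, 1.24 and 1.63 TPM, and in the range of 1 to under 10 it was seen in 20% of cells, with a median of 0. The step between no Mlana and the lowest range thus held most of the difference for Foxq1, Krt75 and Gpnmb. Mean Kitl also rose at that step, and among cells with Mlana it was 242.8 TPM in the lowest range and 371.3 TPM in the highest. Within that highest range it was 388.2 TPM with Mlana at 100 to under 1000 TPM, and 253.5 TPM in the 4 cells at 1000 TPM or more. Foxq1 (90.9 and 62.5 TPM) and Krt75 (149.4 and 95.4 TPM) were lower in those 4 cells too.

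**Figure D5:**
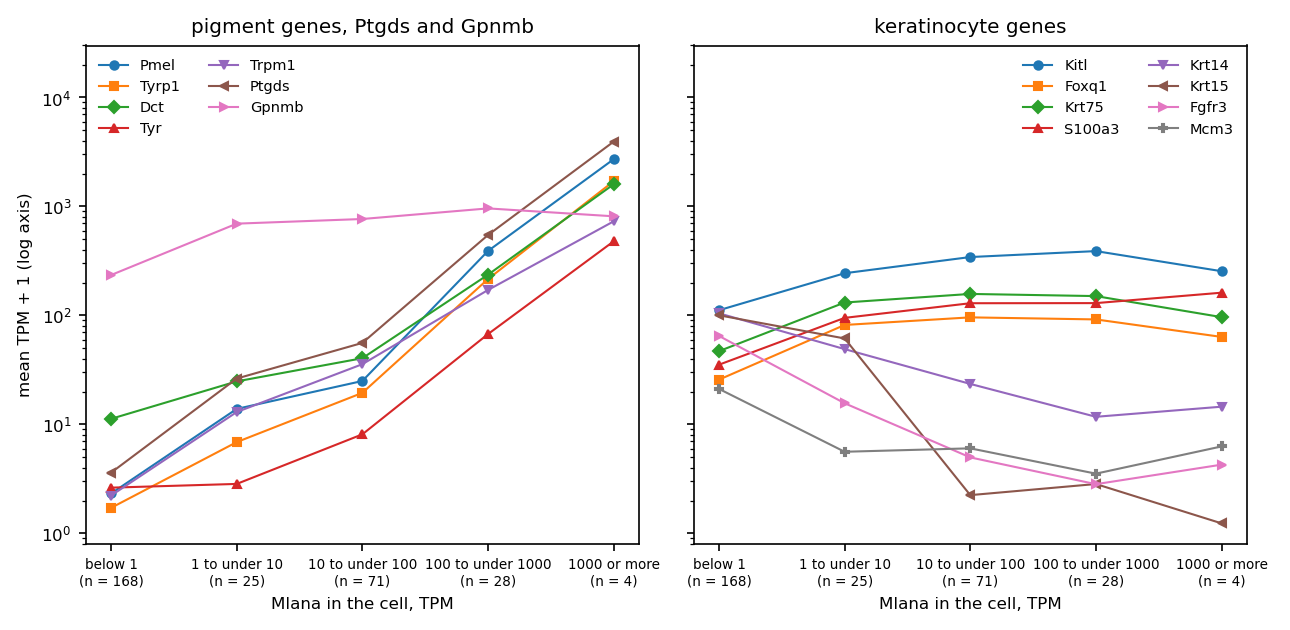
Mean TPM + 1 on a log axis over cells grouped by their Mlana level, with the number of cells in each range. Pmel, Tyrp1, Dct, Tyr, Trpm1 and Ptgds climb through every range, while among cells with Mlana from the lowest range to 100 TPM or more the ratios of Gpnmb, Foxq1 and Krt75 are at most 1.35 and that of Kitl is 1.53.

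The cells without Mlana were themselves graded. Counted over 8 other pigment genes, 25 of them had 0, 64 had 1 and 79 had 2 or more, while cells with Mlana had a median of 6. Kitl had a mean of 2.07, 73.1 and 175.3 TPM in these 3 sets. Foxq1 was seen in 16%, 29.7% and 60.8%, and Krt15 had means of 308.7, 103.96 and 29.2 TPM. Kitl and Foxq1 were thus higher where other pigment transcripts were found without Mlana, and Krt15 was lower.

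Mlana reached 1000 TPM or more in 8 hair bulb cells, 4 of them with Krt5. All 8 had Sox10 (16.4 to 106.2 TPM), Kit (14.6 to 187.95 TPM), Mitf, Tyr, Dct and Pmel (1212 to 6293 TPM). Kitl was seen in 7 of them, at 3.03 to 438.9 TPM, Krt75 in 7 and Foxq1 in 6. In these 8 cells mean Pmel was 1.81 times mean Mlana, and in the 96 keratinocytes with Mlana below 100 TPM it was 0.73 times. The ratio was 1.01 against 1.23 for Dct, 1.02 against 0.53 for Tyrp1 and 0.30 against 0.20 for Tyr. It was 0.43 against 25.9 for Gpnmb and 0.011 against 1.33 for Mreg. These cells were split on Mlana, which is also the divisor (means of 1821 and 28.8 TPM), so a gene at a steady level has a lower ratio in the 8 cells by construction. Mean Gpnmb itself was 791.7 against 747.3 TPM. The 4 of the 8 cells with Krt5 are keratinocytes by the rule as well.

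Immediate early and stress genes, which can respond to tissue handling, were also lower with Mlana as a list. Of 13 genes 10 were below 0, beside 5211 of the 10075 genes counted, with a median of -0.40 (plates -0.83 to -0.10). Jun differed by -1.50, Egr1 by -1.07 and Fos by -0.95, while Junb (0.82) and Ier3 (0.78) were higher, and the part of handling was not tested. The median cell had 7569.5 genes with Mlana and 7540 without, 75.1% against 73.4% of TPM on ribosomal RNA rows, 2.64% against 2.85% on mitochondrial rows, and 0.63% against 0.73% on ERCC spike-ins. Markers of other cell types were lower or near 0 with Mlana. At least 3 of 8 smooth muscle genes were seen in 7.81% of cells with Mlana and 25% without, with summed levels of 0 to 1577 and 0 to 1195 TPM. Of those genes, Acta2 was seen in 12.5% against 27.4%. At least 3 of 14 dermal papilla genes were seen in 17.2% against 30.4%, with sums of 0 to 618.3 and 0 to 1032 TPM. At least 3 of 6 endothelial genes were seen in 0 cells of either set, and at least 3 of 8 immune genes in 0.78% and 0.60%. At least 3 of 7 Schwann and nerve genes were seen in 10.9% and 1.79%. At least 3 of 5 Merkel genes were seen in 0 cells: Krt20 and Atoh1 were at 0 in every cell, and Krt8 was seen in 1.56% of cells with Mlana and 7.14% without, Krt18 in 0% and 5.36%, and Piezo2 in 5.47% and 5.95%. The part of these cells and of 2 cells in 1 well in the differences was not tested.

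Well position was read for RNA passing between wells. Among cells with Mlana below 1000 TPM, Mlana was found in 62.5% of the 32 next to a well with 1000 TPM or more (interval 43.7% to 78.9%), in 39% of the 82 in the same row or column, which include adjacent wells in line, and in 42.7% of those that were neither (35.7% to 49.9%). On P2-1, which holds 4 of the 8 such wells, the shares were 64.3%, 48.8% and 71.4%, and on the other 4 plates 61.1%, 29.3% and 39.3%. With wells of 100 TPM or more as the source, the shares were 37.9%, 36.5% and 40%. The intervals of adjacent and other wells overlapped, which does not show that the shares are equal, and the part of passing RNA was not tested.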

How the data were processed

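Values are the authors' deposited TPM, made with Bowtie2 2.2.9 and RSEM 1.2.30 on mm10 per the submitters' processing notes. Each column sums to 1000000, so read depth is not kept, and ribosomal RNA rows hold most of the total. Dermal papilla values, also TPM per the labels, are separated by a slash and a letter t and were read so. The members and the gene lists were chosen with earlier results of these data known. Size is the difference of mean log2(TPM + 1) between cells with and without Mlana. Genes counted were seen in at least 30% of cells of 1 set. Spike-in, ribosomal RNA and mitochondrial rows were left out. Named genes are the pigment lists, the 12 most higher and 12 most lower genes with 1 sign in all 5 plates (no predicted models or pseudogenes), and up to 4 members of each other list. Foxn1, Edn1, Edn3, Hgf, Pomc, Shh, Krt71, Itga6, Trp63, Lef1, Dlx3, Krt83, Ier3 and Atoh1 were added after their values were seen, as were the pairs of genes that define classes, the range of 1000 TPM and the wells around it. Of 384 hair bulb cells, 296 met the rule, 128 with Mlana and 168 without, and 359 genes were higher and 337 lower by 1 or more. No test was made: each set is 1 sample. Doublets were not called. Python 3.11.15, numpy 2.4.6, pandas 2.3.3 and scipy 1.17.1 were used, and the difference was tested on simulated data. Alternatives changed the thresholds, pseudocount, scaling, plates and the gene that splits the cells.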

Additional observations from a re-analysis of the deposited data

Results flagged for a closer look

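On plate P2-1 the differences of 4 genes lay far from those of the other 4 plates, among 35 sets of plate values looked at, where chance gives about 1 in 20. Kitl differed by 1.39 there and by 4.13 to 4.94 on the other plates. Krt75 differed by 1.55 against 3.81 to 4.63. B3gnt5 differed by 1.47 against 3.33 to 4.06. Pdzd2 differed by -0.67 against -2.56 to -2.23. On the same plate 85.7% of the cells without Mlana had Kitl, against 48.7% to 64.7% on the other plates, while 97.4% of the cells with Mlana had it, against 95.5% to 100%. P2-1 also had the highest share of cells with Mlana, 57.6%.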

How the results depend on the processing

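The medians of inner root sheath genes and of signals to melanocytes lay near 0, and changed sign (to -0.02 and 0.00 without plate P1-3, to 0.00 for signals without P1-6, and to -0.01 for inner root sheath with a pseudocount of 10). Of the 10 list medians run under the alternatives, no other changed sign. With Krt5 at 100 TPM or more, which moved the median of all genes to 0.15, the share with Mlana was 24.3%, 783 genes (7.66% of those counted) were higher, and medians were 1.69 (matrix), 0.54 (inner root sheath) and -0.55 (G2/M). With a pseudocount of 10, 72 genes (0.71%) were higher and 26 (0.26%) lower, and medians were 0.87 (melanosome), 0.24 (melanocyte regulators), -0.19 (basal and outer root sheath), 0.39 (matrix), 0.023 (cortex and cuticle), 1.504 (medulla), -0.64 (S phase) and -0.39 (G2/M). With TPM rescaled after ribosomal RNA, mitochondrial and spike-in rows were taken out, 939 genes (9.32%) were higher and 705 (6.998%) lower, and medians were 3.16 (melanosome), 1.33 (melanocyte regulators), -0.85 (basal and outer root sheath), 1.45 (matrix), 0.16 (cortex and cuticle), 3.47 (medulla), 0.52 (inner root sheath) and -1.29 (G2/M). The 12 most higher and 12 most lower genes outside the pigment lists kept their sign in every alternative. Of these genes, 19 stayed past 1 with a pseudocount of 10. The same sign on every plate was a condition of their choice. The mean of differences within plates could therefore not change their sign, and leaving out a plate was unlikely to. For those alternatives the kept sign is no separate check.

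Further alternatives were chosen after the data were seen. With Mlana at 1 to under 100 TPM, medians were 1.56 (melanosome) and 0.36 (melanocyte regulators). Without cells with Sox10 or Pax3, the share was 29.4% and these medians were 1.499 and 0.45. Without cells with Sox10, Pax3 or Kit, 55 cells with and 98 without Mlana remained, and the median of all genes was 0.15. List medians were then 0.38 (melanocyte regulators), 1.46 (matrix), 0.89 (inner root sheath), -0.40 (S phase) and -0.20 (G2/M). Split by Pmel, 2.06% of genes were lower. Split by Tyrp1, the melanocyte regulator median was 1.03. The cause of these shifts was not tested. Leaving out cells of 6 or more melanosome genes gave no value, since 0 cells with Mlana remained. Without each plate in turn, the share with Mlana was 39.1% to 45.1%, 3.002% to 4.40% of genes were higher and 2.83% to 4.37% lower, and medians were 2.08 to 2.34 (melanosome), 2.54 to 2.99 (medulla) and -1.33 to -1.18 (S phase). No pairing by animal was possible because the labels name no animal, and no test was made. All 5 plates held cells of both sets. The mean of differences within plates gave 3.305% of genes higher and 3.434% lower. TPM keep no read depth, so a gene not seen may be below detection, and plates are a technical spread of 1 sample.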
